A study of Homo sapiens with 19 samples.

Results

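The genes described here make and trim the peptides that cells present on MHC class I. They are the immunoproteasome subunits PSMB8, PSMB9 and PSMB10, the constitutive subunits PSMB5, PSMB6 and PSMB7 whose places these take, the PA28 activator subunits PSME1 and PSME2, and the peptide-trimming enzymes ERAP1 and ERAP2. A member was measured by every probe set whose platform annotation names that gene alone. Of the 10 genes, 9 had such a probe set, with 18 probe sets of the 54675 on the array, and all 9 reached the signal needed for testing. PSME2 did not, because its probe set is also annotated to a microRNA gene, MIR7703. The series as a whole measured 19775 genes by the same rule.

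All samples are of SKBR3, an established breast cancer line that carries extra copies of ERBB2, kept in medium with serum. Untreated cells gave 3 arrays, and their labels name no sort. Other cells received 60 nM epirubicin, an anthracycline that poisons topoisomerase II, for 3 days and was then sorted by flow cytometry for surface CD44, a hyaluronan receptor, into a fraction labelled CD44-/lo (here CD44lo, 4 arrays) and a CD44hi fraction (4 arrays). Further cells were held at 1% oxygen for 7 days and sorted in the same way into CD44lo (4 arrays) and CD44hi (4 arrays) cells. Effects of treatment and of sorting cannot be told apart in a comparison with untreated cells, and the agent, its length and the oxygen level differ together between the treatments. The labels speak of biological replicates but do not say that these were separate cultures, so p-values measure the spread between these arrays only. The 4 comparisons with untreated cells share the same 3 untreated arrays. In such bulk samples, fewer cells that express a gene and less RNA per cell cannot be told apart.

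The proteasome is a barrel of stacked rings that cuts proteins into peptides, and the cutting is done by the beta subunits PSMB5, PSMB6 and PSMB7. Under interferon, cells make PSMB8, PSMB9 and PSMB10, which are built into new barrels in place of PSMB5, PSMB6 and PSMB7 in that order and change which peptides are cut. PA28 caps the barrel and opens it, the TAP1/TAP2 transporter moves peptides into the endoplasmic reticulum, and ERAP1 and ERAP2 shorten them there to the length that MHC class I holds.

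Several of these genes are known interferon targets, so their promoter windows in RefSeq (GRCh38.p14, 250 bases before to 50 after a gene's start) were searched on both strands for GAAANNGAAA, the core of the interferon-stimulated response element. Windows were found for 8 of the 10 genes, and PSMB6 and PSMB7 were not in the table. The letters were present for 6 of these 8 genes, against 4.38% of 27305 genes in the table. By windows they were in 6 of the 12 of these genes, against 3.57% of 35116 windows. The stretches are shown because they are a feature that members of different roles share. Each is 30 bases written 5′ to 3′ along the gene's own strand, with the matched letters in capitals on whichever strand they lie, and TAP1 is added as the gene next to PSMB9.
PSMB8 (chr6:32844032-32844061, minus strand): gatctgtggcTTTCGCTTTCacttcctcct
PSMB10 (chr16:67936852-67936881, minus strand): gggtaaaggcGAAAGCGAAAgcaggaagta
PSME1 (chr14:24136189-24136218, plus strand): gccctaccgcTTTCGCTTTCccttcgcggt
PSME2 (chr14:24146619-24146648, minus strand): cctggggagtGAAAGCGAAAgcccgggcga
ERAP1 (chr5:96807924-96807953, minus strand): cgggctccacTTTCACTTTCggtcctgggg
ERAP2 (chr5:96876460-96876489, plus strand): tcttagaacaGAAAGTGAAAgcaaaagtaa
TAP1 (chr6:32853813-32853842, minus strand): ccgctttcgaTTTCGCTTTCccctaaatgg

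The first matched base lay 4 bases before the start in PSMB8, 21 in PSMB10, 28 in PSME2 and 30 in ERAP2, and was base 6 of the transcript in PSME1 and base 3 in ERAP1. PSMB9 and PSMB5 had no such letters in their windows. By these coordinates PSMB8 (32840717 to 32844679) and PSMB9 (32854192 to 32859851) lie close together on chromosome 6, PSME1 (24136194 to 24138962) and PSME2 (24143365 to 24146610) on chromosome 14, and ERAP1 (96760813 to 96935854) and ERAP2 (96875984 to 96919716) on chromosome 5. PSMB10 is on chromosome 16, PSMB5 on chromosome 14, PSMB6 on chromosome 17 and PSMB7 on chromosome 9. PSMB9 and TAP1 point away from each other with starts 488 bases apart, and the TAP1 stretch above lies 350 bases from the PSMB9 start, outside the PSMB9 window. TAP1 held a second match that overlaps the first. The interferon-gamma activated site TTCNNNGAA was in the windows of PSMB8 and PSMB5, 2 of 8 genes, against 9.38% of all genes. The NF-kB motif was searched on the gene's own strand only, so matches on the other strand are not counted. It was in the window of ERAP1, 1 of 8, against 9.98%. A match is a description of letters, and binding was not measured.

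Signals are the deposited MAS5 intensities, which share the same trimmed mean on every array. Changes are differences of log2(signal + 4.2), given with their standard error, and they understate changes of genes with signals near that offset. All 19 arrays and 12925 genes were fitted together with limma, and a gene is called at an adjusted p under 0.05 over all genes tested. Where the arrays of a gene are said not to overlap between groups, this is a description, since the share of all genes that do so was not counted. Arrays of one group correlated at r = 0.952 to 0.986 over the tested genes. Bacterial hybridisation controls, which are added to each array in fixed amounts, averaged 2177 in untreated cells, 3257 and 4396 in CD44lo and CD44hi cells after epirubicin, and 2556 and 2724 after hypoxia. The ratio of 3' to 5' signal of ACTB was at most 1.41 in untreated and hypoxia cells and reached 1.71 and 1.85 in the epirubicin fractions. The 5 markers of the line (ERBB2, KRT8, KRT18, KRT19 and EPCAM) all passed the filter. Their summed signal was 14539 to 17000 in untreated cells. It was 15291 to 19716 and 15303 to 24026 in CD44lo and CD44hi cells after epirubicin, and 16329 to 17551 and 16399 to 18646 after hypoxia. Of the 5, 1 was called higher in epirubicin CD44hi cells, against 4.63% of all genes.

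After epirubicin, PSMB8 and PSMB9 rose in both sorted fractions while PSMB5, PSMB6 and PSMB7 were not called. In CD44lo cells 2 of the 9 tested members were called higher and 0 lower, against 2.26% of all genes higher and 0.565% lower (2.82% in either direction). In CD44hi cells the count was again 2 higher and 0 lower, against 4.63% and 1.79% (6.42% in either direction). The median change of the 9 members was 0.46 in CD44lo and 0.66 in CD44hi cells, beside 0.03 and 0.00 for all genes tested. ERAP2 is among the 9 although it was tested only because of its epirubicin arrays, so these medians are a description only.

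PSMB8, the immunoproteasome subunit with chymotrypsin-like activity, had signals of 75.2, 102.3 and 154.6 in untreated cells. After epirubicin it read 434.0, 267.5, 377.2 and 441.7 in CD44lo cells and 382.3, 338.5, 455.6 and 453.8 in CD44hi cells. Every epirubicin array lay above every untreated array. The change was 3.42-fold in CD44lo cells (log2 1.77 ± 0.30, limma adjusted p = 0.00315) and 3.70-fold in CD44hi cells (log2 1.89 ± 0.30, adjusted p = 0.000779). With the hybridisation controls as a covariate the CD44hi value was 1.32 and was no longer called (adjusted p = 0.0729, the highest over its 18 alternatives, with 0.000348 the lowest). Over all genes, this covariate left 108 called in CD44hi cells after epirubicin, against 830 without it. The part of these controls in the result was not tested further.

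PSMB9, the immunoproteasome subunit that replaces the caspase-like PSMB6, had the largest change of the members. Its untreated signals were 80.8, 72.7 and 191.8. They were 907.2, 344.3, 864.6 and 1110.1 in CD44lo cells and 856.0, 724.1, 1049.8 and 1467.8 in CD44hi cells after epirubicin. The groups did not overlap, although CD44lo replicate 2 was well under the other CD44lo arrays. The change was 6.86-fold in CD44lo cells (log2 2.78 ± 0.48, limma adjusted p = 0.00341) and 9.14-fold in CD44hi cells (log2 3.19 ± 0.48, adjusted p = 0.000545). Adding the hybridisation controls as a covariate gave 2.07 in each fraction (adjusted p = 0.0207 and 0.0407), still called. Over 18 alternatives for each fraction the adjusted p ran up to 0.0384 and 0.0407.

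PSMB10, the immunoproteasome subunit with trypsin-like activity, read 158.1, 183.3 and 177.8 in untreated cells. Its epirubicin signals were 321.2, 249.8, 196.9 and 268.2 in CD44lo cells and 307.7, 315.6, 224.1 and 310.7 in CD44hi cells. All 8 were above the untreated arrays, but the changes of log2 0.55 ± 0.25 and 0.72 ± 0.25 were not called over all genes (limma adjusted p = 0.250 and 0.0886). The CD44hi value was called when the compared groups were fitted alone (adjusted p = 0.0185), within a range of 0.0185 to 0.313 over its alternatives.

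**Figure D1:**
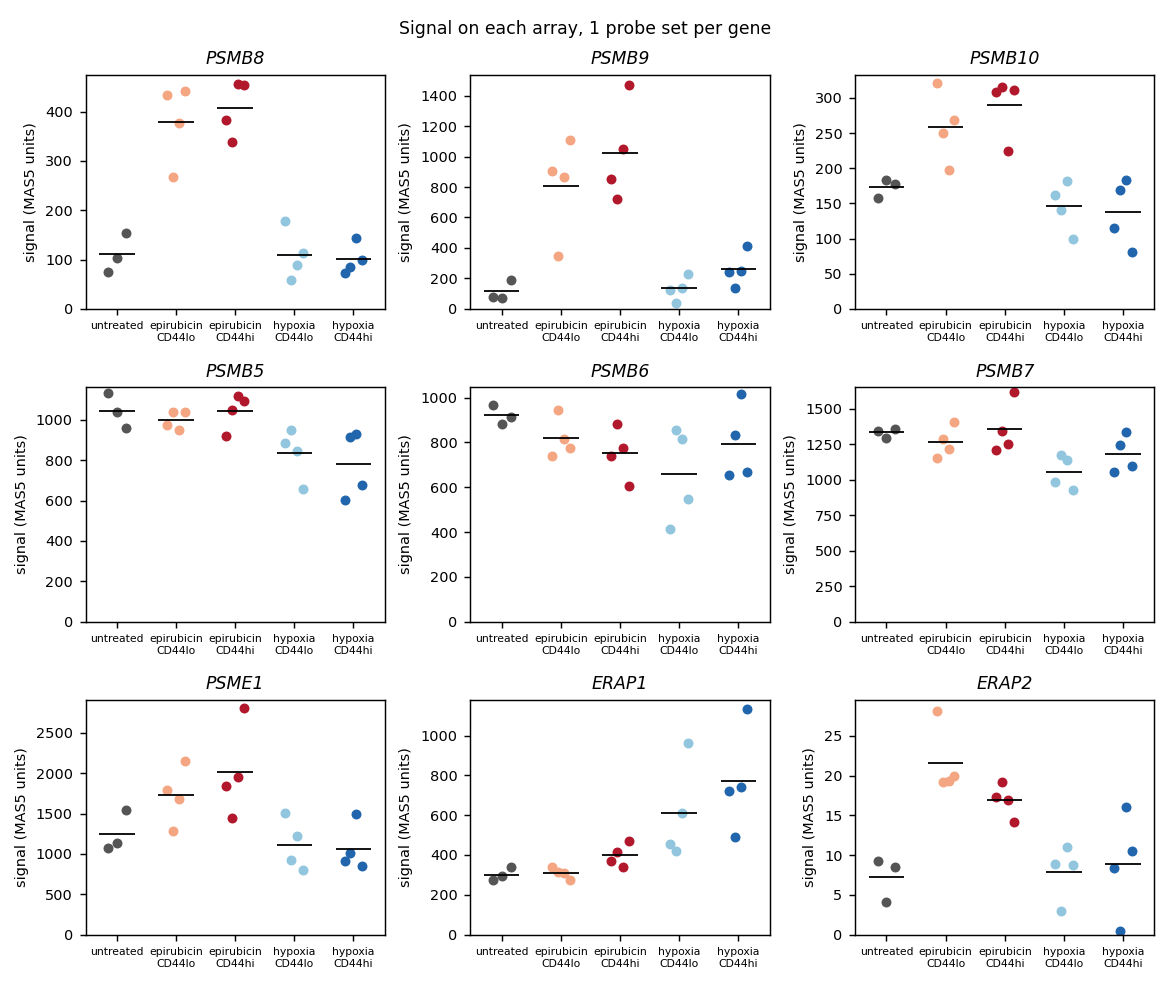
Signal of each tested member (MAS5 intensity, linear axis from 0, with its own range for each gene) on every array, in the 5 groups, with 1 point per array and a bar at the group mean. PSMB8 and PSMB9 lie higher on all 8 epirubicin arrays than on the 3 untreated arrays, whereas PSMB5, PSMB6 and PSMB7 keep overlapping ranges after epirubicin.

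The constitutive subunits carry the same cutting activities in the standard proteasome. PSMB5, the chymotrypsin-like subunit, read 1133.9, 1039.2 and 961.3 in untreated cells, 949.1 to 1040.0 in CD44lo and 917.4 to 1117.9 in CD44hi cells after epirubicin. PSMB6 read 967.3, 880.0 and 914.5 in untreated cells, then 738.6 to 944.5 and 606.6 to 884.1. PSMB7, the trypsin-like subunit, read 1342.7, 1293.7 and 1359.2, then 1150.5 to 1407.7 and 1208.0 to 1614.6. All 3 overlapped between untreated and epirubicin cells. Their log2 changes were -0.06 ± 0.16, -0.17 ± 0.21 and -0.08 ± 0.13 in CD44lo cells and -0.00 ± 0.16, -0.30 ± 0.21 and 0.02 ± 0.13 in CD44hi cells. The 95% intervals of the CD44hi changes were -0.33 to 0.33 for PSMB5, -0.74 to 0.14 for PSMB6 and -0.26 to 0.30 for PSMB7, so small changes of either sign are within the error.

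Each immunoproteasome subunit was then set against the subunit it replaces, as the difference of their log2 values on the same array. The levels of different probe sets cannot be compared, so only the change of this difference between groups was read. For PSMB8 over PSMB5 the difference was -3.84, -3.29 and -2.60 in untreated cells, -1.94 to -1.16 in CD44lo cells and -1.62 to -1.25 in CD44hi cells after epirubicin. For PSMB9 over PSMB6 it was -3.51, -3.52 and -2.23 in untreated cells, then -1.44 to 0.51 and -0.29 to 1.27. For PSMB10 over PSMB7 it was -3.05, -2.79 and -2.91, then -2.60 to -1.83 and -2.46 to -1.96. In all 3 pairs the epirubicin arrays lay above every untreated array. How often other pairs of genes separate in this way was not counted.

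The pair difference moved toward the immunoproteasome subunit by 1.83 (CD44lo) and 1.89 (CD44hi) for PSMB8 over PSMB5, by 2.95 and 3.50 for PSMB9 over PSMB6, and by 0.63 and 0.70 for PSMB10 over PSMB7. In two-sided exact permutation tests over arrays, p was 0.0286 for PSMB8 over PSMB5 in both fractions and for the other pairs in CD44hi cells, and 0.0571 for the other pairs in CD44lo cells. The smallest p that 4 against 3 arrays allow is 0.0286, and after adjustment over the 18 pair tests these values were 0.129 and 0.171, so none passed. After hypoxia the pair differences overlapped with the untreated ones: the changes were 0.27 and 0.32 for PSMB8 over PSMB5, 0.65 and 1.42 for PSMB9 over PSMB6, and 0.07 and -0.22 for PSMB10 over PSMB7 in CD44lo and CD44hi cells (exact permutation p from 0.114 to 0.714).

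**Figure D2:**
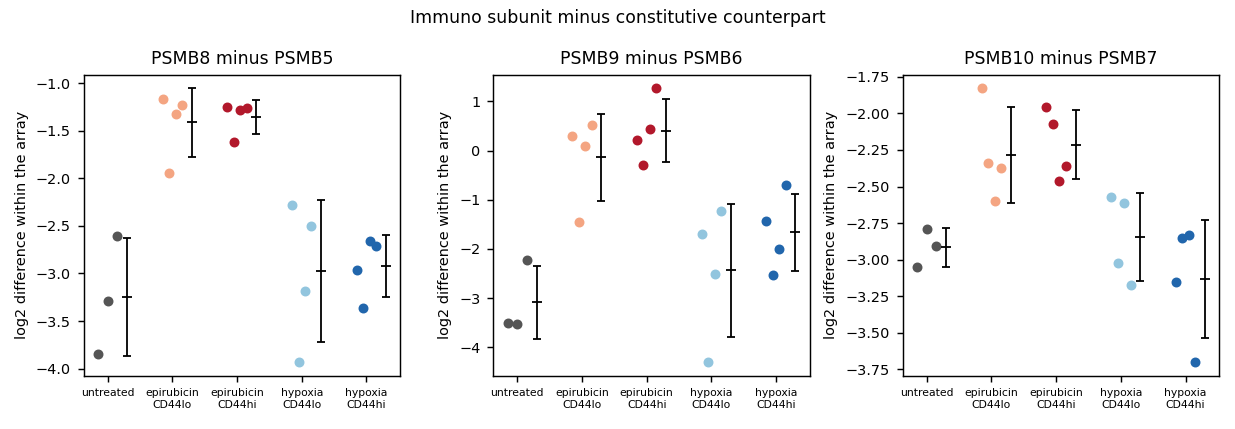
Difference of log2 values between each immunoproteasome subunit and the constitutive subunit it replaces, 1 point per array in the 5 groups, with a bar at the group mean. For every pair all 8 epirubicin arrays lie above the 3 untreated arrays, and the hypoxia arrays overlap with them.

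PSME1, the alpha subunit of PA28, had signals of 1067.3, 1140.6 and 1547.7 in untreated cells. They were 1797.5, 1287.6, 1678.4 and 2152.4 in CD44lo and 1835.7, 1449.1, 1956.6 and 2804.4 in CD44hi cells after epirubicin. The ranges overlapped through untreated replicate 3, and the changes of log2 0.46 ± 0.24 and 0.66 ± 0.24 were not called (limma adjusted p = 0.327 and 0.110). Untreated replicate 3 was also the highest untreated array for PSMB8 and PSMB9.

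ERAP2 was near the bottom of the measured range. Its probe set read 9.3, 4.1 and 8.5 in untreated cells, 28.1, 19.2, 19.3 and 19.9 in CD44lo and 17.3, 19.2, 16.9 and 14.1 in CD44hi cells after epirubicin, and 0.5 to 16.0 over the 8 hypoxia arrays. All epirubicin arrays were above all untreated ones, and the changes of log2 1.19 ± 0.40 and 0.90 ± 0.40 were not called (limma adjusted p = 0.124 and 0.183). The gene reached the filter of 16.9 in at least 3 arrays only through epirubicin arrays, so the separation of its groups supports nothing. Its other 4 probe sets stayed under the filter.

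After hypoxia ERAP1 rose in both fractions, PSMB5 fell in CD44hi cells, and PSMB8, PSMB9 and PSMB10 were not called. Of the 9 members 1 was called higher and 0 lower in CD44lo cells, against 10.7% and 11.7% of all genes (22.5% in all). In CD44hi cells 1 was called higher and 1 lower, against 12.8% and 14.1% (26.9% in all). These counts are near those shares. The median change of the members was -0.19 and -0.18, beside 0.02 and 0.00 for all genes.

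PSMB8 read 178.6, 58.3, 89.2 and 112.4 in CD44lo and 73.3, 85.2, 143.9 and 99.9 in CD44hi cells after hypoxia, a range that overlaps with that of untreated cells (log2 -0.06 ± 0.30 and -0.12 ± 0.30, limma adjusted p = 0.904 and 0.814). PSMB10 read 99.1 to 182.2 and 80.4 to 183.9 (log2 -0.27 ± 0.25 and -0.39 ± 0.25, adjusted p = 0.471 and 0.264). PSMB9 read 124.4, 39.5, 139.2 and 231.9 in CD44lo cells and 240.3, 139.9, 250.3 and 410.2 in CD44hi cells. Of these, 1 CD44lo array and 3 CD44hi arrays were above the untreated range, and the CD44hi fraction had a change of log2 1.18 ± 0.48 that was not called (adjusted p = 0.0726). That PSMB9 value was called when the compared groups were fitted alone (0.0303), and without untreated replicate 3 (log2 1.61, adjusted p = 0.0341) or hypoxia CD44hi replicate 2 (log2 1.44, adjusted p = 0.0332), with a range of 0.00612 to 0.253 over all alternatives.

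PSMB5 was the member called lower in hypoxia CD44hi cells. Its signals there were 602.3, 915.5, 927.8 and 676.2, all under the untreated arrays, and the change was log2 -0.44 ± 0.16 (limma adjusted p = 0.0443). The call ended when any one of untreated replicates 1, 2 and 3 or CD44hi replicates 1 and 4 was left out (adjusted p from 0.0618 to 0.163). In CD44lo cells PSMB5 read 884.4, 947.5, 844.7 and 656.4, again all under the untreated arrays, with log2 -0.33 ± 0.16 (adjusted p = 0.137). PSMB6 and PSMB7 had changes of -0.54 ± 0.21 and -0.34 ± 0.13 in CD44lo cells (adjusted p = 0.0715 and 0.0731) and -0.24 ± 0.21 and -0.18 ± 0.13 in CD44hi cells. In CD44lo cells both lay under every untreated array, and without hypoxia CD44lo replicate 2 both were called there (adjusted p = 0.0197 and 0.0423). PSME1 read 804.9 to 1512.0 and 847.8 to 1488.9 after hypoxia, with log2 -0.19 ± 0.24 and -0.25 ± 0.24, and was not called.

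ERAP1, the aminopeptidase that trims most precursors in the endoplasmic reticulum, was represented by probe set 209701_at. It read 274.7, 292.2 and 338.2 in untreated cells, 454.2, 421.4, 611.3 and 964.5 in hypoxia CD44lo and 723.3, 489.1, 742.6 and 1134.6 in hypoxia CD44hi cells. Every hypoxia array was above every untreated array. The change was 1.92-fold in CD44lo cells (log2 0.94 ± 0.25, limma adjusted p = 0.0111) and 2.44-fold in CD44hi cells (log2 1.29 ± 0.25, adjusted p = 0.000768). Without untreated replicate 1 the CD44lo value was no longer called (adjusted p = 0.0541, the highest over its 18 alternatives, with 0.00143 the lowest). After epirubicin the same probe set read 341.3, 314.0, 311.2 and 275.9 in CD44lo cells and 371.0, 415.2, 338.6 and 471.9 in CD44hi cells, with log2 0.04 ± 0.25 and 0.39 ± 0.25, and was not called (adjusted p = 0.948 and 0.363).

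The probe sets of ERAP1 did not give one picture. Of 5, 3 passed the filter, and they were fitted beside all probe sets of the array. Against untreated cells, 209788_s_at changed by log2 0.71 ± 0.23 in hypoxia CD44lo and 0.81 ± 0.23 in hypoxia CD44hi cells (limma adjusted p = 0.0365 and 0.0149), and 210385_s_at by 0.60 ± 0.23 and 0.75 ± 0.23 (adjusted p = 0.0747 and 0.0229). After epirubicin these probe sets had changes of 0.50 ± 0.23 and 0.51 ± 0.23 in CD44lo cells, and 0.61 ± 0.23 and 0.87 ± 0.23 in CD44hi cells, of which the last was called (adjusted p = 0.0291). The changes after hypoxia thus had the same sign in all 3 probe sets. After epirubicin in CD44lo cells 209701_at stood at 0.04 and the others at 0.50 and 0.51, none of them called.

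The 3' end of ERAP1 overlaps by 13871 bases with CAST, the gene of calpastatin, an inhibitor of calpain proteases. CAST was looked at after these values were seen. Over the 19 arrays, which share their groups and scaling, 209701_at correlated at r = 0.923, 0.928 and 0.888 with the CAST probe sets 207467_x_at, 208908_s_at and 212586_at. With the other CAST probe sets, 1564010_at and 212580_at, it was at 0.759 and 0.210. It was at 0.746 and 0.496 with the ERAP1 probe sets 209788_s_at and 210385_s_at. With group means removed the values were 0.750, 0.780, 0.799, 0.477 and -0.00734 for CAST in that order and 0.736 and 0.431 for ERAP1. ERAP1 210385_s_at was at 0.832 with CAST 212580_at, which was called in no comparison. The CAST probe sets 207467_x_at, 208908_s_at and 212586_at rose in hypoxia CD44hi cells by log2 1.08 ± 0.20, 1.04 ± 0.20 and 1.29 ± 0.31 (limma adjusted p = 0.000581, 0.000899 and 0.00508) and were not called after epirubicin. Whether 209701_at also measures RNA of CAST was not tested.

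**Figure D3:**
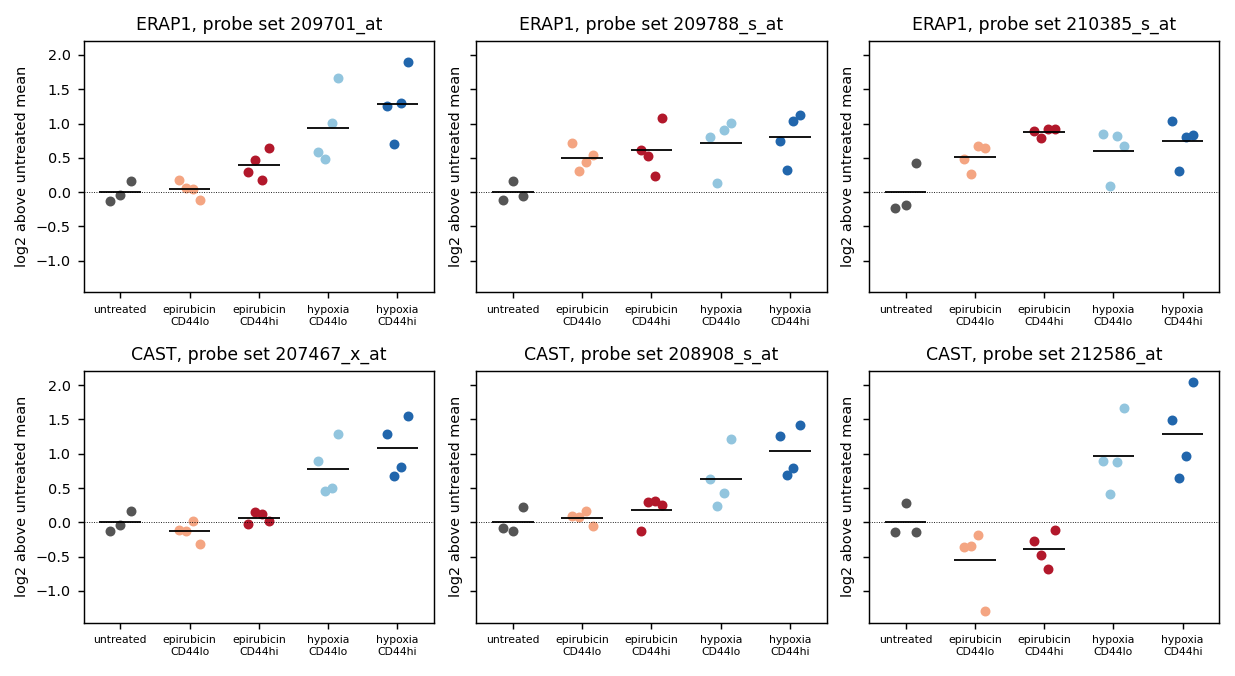
Change of log2 signal from the untreated mean for the 3 ERAP1 probe sets that passed the filter and for the 3 of 5 CAST probe sets that correlate most with 209701_at, 1 point per array with a bar at the group mean. The ERAP1 probe set 209701_at is high on the hypoxia arrays, as are these CAST probe sets, which were picked for that likeness, whereas the other ERAP1 probe sets have similar group means after both treatments.

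**Figure D4:**
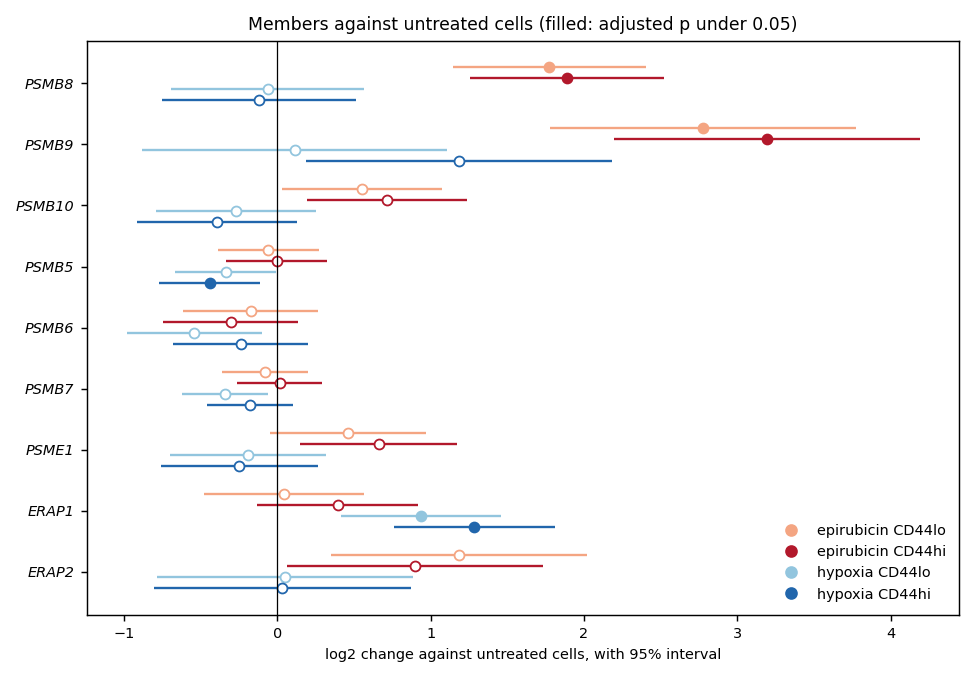
Log2 change of each tested member with its 95% interval in limma's fit of all 19 arrays, for the 4 comparisons with untreated cells. Filled points are called at an adjusted p under 0.05. PSMB8 and PSMB9 lie highest after epirubicin, and ERAP1 is raised after hypoxia.

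The treatments were also compared directly within each CD44 fraction, where no arrays are shared with untreated cells. All 3 immunoproteasome subunits were lower after hypoxia than after epirubicin in both fractions. In CD44lo cells 1 of the 9 members was called higher and 4 lower, against 7.09% and 9.85% of all genes (16.9% in all). The 4 include ERAP2, which was tested only because of its epirubicin arrays and so supports nothing in this count. In CD44hi cells 1 was called higher and 5 lower, against 8% and 10.2% (18.2% in all). The median member change was -0.65 and -0.87, beside -0.04 and -0.02 for all genes. The CD44hi median is the value of ERAP2 itself, and ERAP2 counts in both medians, so these medians support nothing either.

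PSMB8 was 3.57-fold lower after hypoxia in CD44lo cells (log2 -1.84 ± 0.28, limma adjusted p = 0.000114) and 4.02-fold lower in CD44hi cells (log2 -2.01 ± 0.28, adjusted p = 5.19e-05). PSMB9 was 6.34-fold lower (log2 -2.66 ± 0.44, adjusted p = 0.000271) and 4.02-fold lower (log2 -2.01 ± 0.44, adjusted p = 0.00309). PSMB10 was 1.77-fold lower (log2 -0.82 ± 0.23, adjusted p = 0.0178) and 2.16-fold lower (log2 -1.11 ± 0.23, adjusted p = 0.00199). None of these 3 genes had a hypoxia array inside the epirubicin range of the same fraction. The share of all genes that separate in this way was not counted. The PSMB8 and PSMB9 calls held in each of their 20 alternatives per fraction, and the PSMB10 call in CD44lo cells ended without epirubicin CD44lo replicate 1 (adjusted p = 0.0660) or hypoxia CD44lo replicate 4 (0.0710).

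PSME1 was lower by log2 -0.91 ± 0.23 in CD44hi cells (limma adjusted p = 0.00756) and had -0.65 ± 0.23 in CD44lo cells (adjusted p = 0.0532). The groups overlapped, the CD44hi call ended with the hybridisation controls as a covariate (adjusted p = 0.0535), and the CD44lo value was called without epirubicin CD44lo replicate 2 (0.0320) or hypoxia CD44lo replicate 1 (0.0209). PSMB5 was lower by log2 -0.44 ± 0.15 in CD44hi cells (adjusted p = 0.0419), where leaving out any one of epirubicin replicates 2, 3 and 4 or hypoxia replicates 1 and 4 ended the call (adjusted p from 0.0695 to 0.163), and had -0.28 ± 0.15 in CD44lo cells. ERAP2 was called lower in CD44lo cells (log2 -1.13 ± 0.37, adjusted p = 0.0394), a call that ended without any one of 7 of the 8 arrays compared. ERAP1 was the member called higher, by log2 0.90 ± 0.23 and 0.89 ± 0.23 (adjusted p = 0.0106 and 0.00984). That difference rests on 209701_at, since the other ERAP1 probe sets had 0.21 and 0.09 in CD44lo and 0.20 and -0.13 in CD44hi cells (adjusted p from 0.578 to 0.837).

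No member was called between CD44hi and CD44lo cells of one treatment. After epirubicin 0 of the 9 members were called between them, and 0 had an unadjusted p under 0.05 in limma, against 0.0232% and 2.41% of all genes. After hypoxia 0 were called, against 0% of all genes, and 1 had an unadjusted p under 0.05 (PSMB9), against 6.88%. PSMB9 had a difference of log2 1.07 ± 0.44 after hypoxia (95% interval 0.15 to 2.00, adjusted p = 0.681) and of 0.42 ± 0.44 after epirubicin. PSMB8 had 0.12 ± 0.28 after epirubicin and -0.06 ± 0.28 after hypoxia, with intervals of -0.47 to 0.70 and -0.64 to 0.53. The interaction of treatment and CD44 fraction was called for 0 members and 0% of all genes, with 0 members at an unadjusted p under 0.05, and for PSMB9 it was 0.66 ± 0.63. The pair differences overlapped between the fractions as well, with changes of -0.29 to 0.77 (exact permutation p from 0.314 to 0.914). Intervals this wide do not show that the fractions are alike.

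Other genes of the pathway place the members in context. The rest of the 20S barrel had 0 called genes after epirubicin in either fraction, of 6 tested in the alpha ring and 4 among the other beta subunits. Likewise 0 of 15 were called in the 19S cap. There 1 gene in CD44lo and 2 in CD44hi cells had an unadjusted p under 0.05 in limma, against 0 in the barrel groups. Among all genes 2.82% and 6.42% were called in these comparisons, and 18.2% and 23.1% had an unadjusted p under 0.05. With lists this short, 0 called is near the background and does not set these genes apart. After hypoxia, 3 of 6 alpha ring genes were called lower in CD44lo cells (PSMA4 by log2 -0.57 ± 0.19, PSMA1 by -0.51 ± 0.17 and PSMA5 by -0.48 ± 0.15), as were 1 of the 4 beta subunits (PSMB3, -0.64 ± 0.23) and 5 of 15 cap genes, among them PSMD11 (-1.01 ± 0.31) and PSMD14 (-0.95 ± 0.30). In hypoxia CD44hi cells 0 genes of these 3 groups were called in limma, with 2 alpha ring genes, 0 beta subunits and 1 cap gene at an unadjusted p under 0.05. Among all genes 26.9% were called in that comparison, 14.1% of them lower as a share of all, and 37.7% had an unadjusted p under 0.05. The median changes in hypoxia CD44lo cells were -0.37 in the alpha ring, -0.32 in the beta subunits and -0.37 in the cap, beside 0.02 for all genes, of which 11.7% were called lower.

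PSME3, which forms another cap of the barrel, fell by log2 -0.97 ± 0.33 in hypoxia CD44lo cells (limma adjusted p = 0.0381) and was not called elsewhere against untreated cells. PSMF1, an inhibitor of the barrel, rose by 0.45 ± 0.16 in hypoxia CD44hi cells (adjusted p = 0.0494). Assembly chaperones had 0 of 9 called after epirubicin (1 and 2 at an unadjusted p under 0.05), and 3 and 4 of 9 called lower in CD44lo and CD44hi cells after hypoxia, with PSMD5 at -0.57 ± 0.18 and -0.67 ± 0.18. Among 7 cytosolic peptidases, which destroy or trim peptides outside the endoplasmic reticulum, the puromycin-sensitive aminopeptidase NPEPPS fell in CD44lo cells after epirubicin (-0.73 ± 0.16, adjusted p = 0.0166) and 0 were called in CD44hi cells (1 at an unadjusted p under 0.05). After hypoxia 2 and 3 of these 7 were called lower, including the bleomycin hydrolase BLMH at -0.85 ± 0.30 and -1.15 ± 0.30. The share of all genes called lower after hypoxia was 11.7% and 14.1%. After epirubicin 2.82% and 6.42% of all genes were called in either direction, and 18.2% and 23.1% had an unadjusted p under 0.05 in limma. In hypoxia against epirubicin NPEPPS was higher by 1.10 ± 0.15 and 0.73 ± 0.15 (adjusted p = 3.5e-05 and 0.00167).

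**Figure D5:**
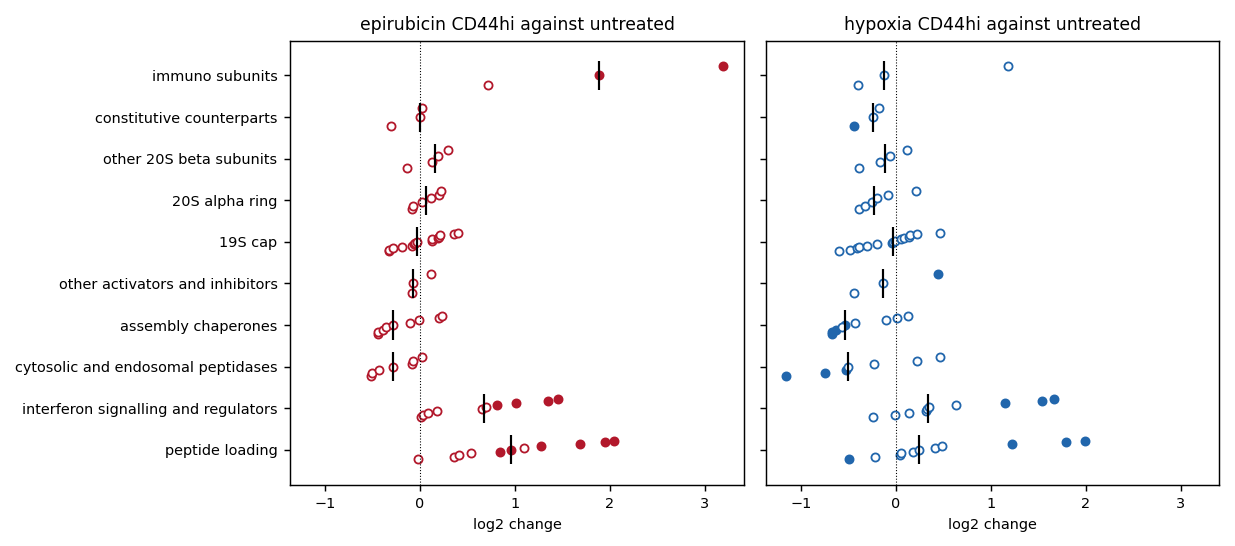
Log2 change against untreated cells of tested genes of the proteasome and peptide pathway, grouped by role, in the CD44hi fractions after epirubicin and after hypoxia. There is 1 point per gene, filled where called, and a bar at the median of each list. PSME1, ERAP1, ERAP2 and the proteasome gene regulators are not drawn. Immunoproteasome subunits and peptide loading genes have the highest medians after epirubicin (1.89 and 0.96).

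TAP1, the transporter subunit whose gene stands beside PSMB9, averaged 187 ± 49.0 (SD, n = 3) in untreated cells and 447 ± 57.7 and 616 ± 169 (n = 4 each) in CD44lo and CD44hi cells after epirubicin, a change of log2 1.26 ± 0.22 and 1.69 ± 0.22 (limma adjusted p = 0.00359 and 0.000137). It was also called in hypoxia CD44hi cells (1.22 ± 0.22, adjusted p = 0.000363), where it averaged 436 ± 63.1, and had 0.57 ± 0.22 in hypoxia CD44lo cells (adjusted p = 0.0664). TAP2, the other transporter subunit, changed by 0.73 ± 0.24 and 0.96 ± 0.24 after epirubicin (adjusted p = 0.114 and 0.0218) and was lower after hypoxia than after epirubicin by -1.33 ± 0.23 and -1.18 ± 0.23 (adjusted p = 0.000309 and 0.000983).

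Of the 11 tested genes of peptide loading, epirubicin left 0 called lower, with 4 called higher in the CD44lo fraction and 6 in the CD44hi fraction. The classical MHC heavy chains HLA-B (1.67 ± 0.35 and 2.04 ± 0.35) and HLA-C (1.53 ± 0.34 and 1.95 ± 0.34) and the loading factor TAPBP (1.05 ± 0.28 and 1.28 ± 0.28) were among them, and probe sets of these heavy chains can share sequence with related genes. The share of all genes called higher was 2.26% and 4.63%. After hypoxia 2 and 3 of the 11 were called higher and 1 lower in each fraction, against 10.7% and 12.8% of all genes higher and 11.7% and 14.1% lower, so that 1 of 11 lower is near the background. There HLA-C rose by 1.57 ± 0.34 and 2.00 ± 0.34 and CALR, a chaperone of loading, fell by -0.66 ± 0.18 and -0.49 ± 0.18. The medians of the list were 0.73 and 0.96 after epirubicin and 0.31 and 0.24 after hypoxia, beside 0.03, 0.00, 0.02 and 0.00 for all genes.

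Of the interferon signalling genes, 10 were tested. After epirubicin 2 were called higher in CD44lo and 4 in CD44hi cells, and after hypoxia 4 and 3, with 0 lower in any group. The share of all genes called higher was 2.26% and 4.63% after epirubicin and 10.7% and 12.8% after hypoxia. IRF1, a transcription factor known to drive the immunoproteasome genes, averaged 71.8 ± 22.5 in untreated cells and 167 ± 35.7 and 202 ± 51.3 after epirubicin (log2 1.18 ± 0.26 and 1.45 ± 0.26, limma adjusted p = 0.0179 and 0.00241). It averaged 96.7 ± 21.4 and 92.4 ± 31.7 after hypoxia (0.42 ± 0.26 and 0.33 ± 0.26, adjusted p = 0.265 and 0.385), and was lower there than after epirubicin (-0.76 ± 0.24 and -1.12 ± 0.24, adjusted p = 0.0361 and 0.00287). IRF9, a transcription factor of the interferon response, rose after both treatments, by 1.47 ± 0.28 and 1.34 ± 0.28 after epirubicin and by 1.56 ± 0.28 and 1.67 ± 0.28 after hypoxia. JAK1, a kinase of the interferon receptors, was called in 3 of the 4 groups, with 0.81 ± 0.18 in epirubicin CD44hi and 1.03 ± 0.18 and 1.15 ± 0.18 after hypoxia. Among the proteasome gene regulators, NFE2L1 rose in epirubicin CD44hi cells (0.89 ± 0.23, adjusted p = 0.0221). NLRC5, a regulator of MHC class I genes, was measured but stayed below the filter and was not tested. Its signal was 0.6 to 1.3 in untreated cells, 5.4 to 16.3 and 5.5 to 23.2 in CD44lo and CD44hi cells after epirubicin, and 0.9 to 7.4 and 0.3 to 11.6 after hypoxia. LNPEP was not analysed here.

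Likeness of pattern was measured as Pearson's r of log2 values over the 19 arrays, which share their groups, against all genes tested. The genes most like PSMB8 were CTSS (0.971), PLAAT4 (0.967), GDF15 (0.964), BDKRB2 (0.961) and TRIM38 (0.959). Those most like PSMB9 were PMAIP1 (0.972), LCN2 (0.958), APOL6 (0.947), TRIM31 (0.934) and CEBPB (0.927). PSMB10 was most like IFITM1 (0.930), PSME1 like RNF181 (0.943), ERAP1 like GSTA1 (0.960) and ERAP2 like NLRP1 (0.883). ERAP2 was tested only because of its epirubicin arrays, so its likeness to another gene supports nothing. Among the members themselves PSMB8 was closest to PSMB9 (0.892) and PSME1 (0.867), whereas ERAP1 was at -0.435 with PSMB8. Both this value and the likeness of ERAP1 to GSTA1 rest on the probe set 209701_at alone. The ERAP1 probe sets 209788_s_at and 210385_s_at changed by log2 0.50 to 0.87 after epirubicin and by 0.60 to 0.81 after hypoxia. Their likeness to PSMB8 was not measured, so the value of -0.435 is not a finding for ERAP1 as a gene.

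Leukocytes carry immunoproteasomes at all times, so their markers were read beside these values. Of 10 immune markers 8 had a probe set of their own and 1 of these, ITGAM, passed the filter. The summed signal of the 8 was 19 to 27.1 in untreated cells, 46.6 to 57.0 and 47.8 to 90.1 in CD44lo and CD44hi cells after epirubicin, and 22.6 to 65.6 and 34.2 to 66.2 after hypoxia. PTPRC, the pan-leukocyte marker, stayed between 1.1 and 11.1 and CD3E between 0.1 and 3.4 on all arrays, near the bottom of the range, and 0 of the 8 read 0 throughout. ITGAM was called higher in both epirubicin groups (log2 1.33 ± 0.35 and 1.41 ± 0.35, limma adjusted p = 0.0445 and 0.0199) and in hypoxia CD44hi cells (1.48 ± 0.35). Of the 8 stromal and endothelial markers 3 were tested and CDH5 was called higher in all 4 sorted groups (1.90 ± 0.25 and 2.36 ± 0.25 after epirubicin, 1.23 ± 0.25 and 1.41 ± 0.25 after hypoxia), with a summed signal of 81.2 to 96.8 in untreated cells and 117 to 403 in the sorted groups. All samples are of a line kept in medium, and what these marker signals reflect was not tested.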

How the data were processed

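RNA of 19 samples was labelled by the Affymetrix 3' method from 200 ng, per the labels' protocols, and hybridised to arrays of 54675 probe sets. The deposited values are linear intensity signals; they were made by the authors with MAS5, per the submitters' processing notes, with its version and settings not given in the sources used here. Gene names came from the platform annotation: 41091 probe sets name 1 gene, 1801 several and 11721 none, beside 62 controls. Each gene was read from its probe set of highest mean signal, with those that admit shared probes (_x_at) used only where there was no other. Genes with a signal of 16.9, the table's median, on at least 3 arrays were tested (12925, with 6850 below). Values were log2(signal + 4.2), the offset being the table's 25th percentile, fitted by group with limma 3.58.1 in R 4.3.3 (variance trend, Benjamini-Hochberg over all genes, threshold 0.05). Pair differences were tested by exact permutation of arrays. The steps were tested on simulated data; numpy 2.4.6, pandas 2.3.3 and matplotlib 3.10.9 were used.

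Members and lists were chosen with earlier results of these data known. Named genes are the members, up to 4 called genes of largest change per list and comparison, TAP1, TAP2, LNPEP, PSME3, IRF1 and NLRC5 (another gene of the rule is not reported here), called markers, and the 5 genes most correlated with a member; CAST was added after its values were seen. Same-numbered CD44lo and CD44hi arrays mostly deviated together, after epirubicin (r = 0.375, 0.546, 0.114 and 0.461) and after hypoxia (-0.0407, 0.633, 0.278 and 0.543). Hypoxia number 1 did not, and epirubicin CD44lo replicate 3 was closer to CD44hi replicate 1 (0.140) than to its own number. The numbers may thus pair the fractions in both treatments, which the main fit does not use. The alternatives were other offsets, no filter, other probe set rules, quantile scaling, no variance trend, a replicate block, hybridisation controls as a covariate, only the compared groups, and arrays left out. The number of arrays limits the precision.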

Additional observations from a re-analysis of the deposited data

Results flagged for a closer look

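Of 48 sets of 4 arrays (9 members and 3 pair differences), 3 held an array whose gap to its nearest neighbour was an unusually large share of the set's range, and chance gives about 1 in 20. In PSMB10 the epirubicin CD44hi replicate 3 was low, with a signal of 224.1 and a gap of 0.926 of the range. In ERAP2 the epirubicin CD44lo replicate 1 was high, with 28.1 and a gap of 0.909. In the difference of PSMB8 over PSMB5 the epirubicin CD44hi replicate 2 was low, with -1.62 and a gap of 0.908.

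PSME2, the beta subunit of PA28, was outside the comparisons because its probe set 201762_s_at is annotated to MIR7703 as well. That probe set averaged 2039 ± 164 (SD, n = 3) in untreated cells, 2839 ± 287 and 3339 ± 668 (n = 4 each) in CD44lo and CD44hi cells after epirubicin, and 1392 ± 228 and 1661 ± 310 after hypoxia. All 8 epirubicin arrays (2462 to 4126) were above all untreated arrays (1904 to 2222). Fitted with limma beside all probe sets, its change was log2 0.47 ± 0.17 (adjusted p = 0.158) and 0.69 ± 0.17 (adjusted p = 0.0212) after epirubicin, and -0.56 ± 0.17 (adjusted p = 0.0275) and -0.31 ± 0.17 (adjusted p = 0.217) after hypoxia. It was lower after hypoxia than after epirubicin by 2.05-fold in CD44lo and 2.0-fold in CD44hi cells (adjusted p = 0.000129 and 0.000198). Which of the annotated genes it reads was not tested.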

How the results depend on the processing

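No result changed direction while called. Of 180 alternatives for the 9 counts of members called, 162 stayed within 1.5 times. The counts between the CD44 fractions and of the interaction are among these and were 0 throughout. In the main fit at most 3 genes of the whole series were called there, so that they did not move says little. No pair difference passed after adjustment under any alternative (lowest adjusted p = 0.103 in the exact permutation tests), and with so few arrays this says nothing about stability. For epirubicin CD44hi the count was 1 with the hybridisation controls as a covariate. That covariate cut the calls over all 12925 genes from 830 to 108 there, and from 365 to 108 in epirubicin CD44lo. For hypoxia CD44lo the count of members was 2 with quantile scaling, 3 with the replicate block and 3 without the hypoxia arrays numbered 2, and leaving out single arrays gave 0 to 3. For hypoxia CD44hi it was 1 with no filter, no variance trend, the covariate, or every probe set on its own, and 1 to 3 leaving out single arrays. For hypoxia against epirubicin it was 3 in CD44lo cells with the mean of all probe sets, which ended the ERAP1 call in both fractions (adjusted p = 0.160 and 0.270), and 3 to 5 and 5 to 7 leaving out single arrays. Both epirubicin counts against untreated cells stayed at 2 with any single array left out. Where not shown in these values, the cause was not tested.

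With the replicate number as a block the counts were 2, 3, 3 and 3 against untreated cells, 6 and 6 for hypoxia against epirubicin, and 0 between the CD44 fractions. Calls over all 12925 genes rose as well. Against untreated cells they went from 365, 830, 2903 and 3475 to 600, 1165, 3262 and 3679. For hypoxia against epirubicin they went from 2189 and 2354 to 3014 and 3171. Member calls gained were PSMB10 in epirubicin CD44hi (adjusted p = 0.0469), PSMB6 and PSMB7 in hypoxia CD44lo (0.0466 and 0.0467), PSMB9 in hypoxia CD44hi (0.00612) and PSME1 in hypoxia against epirubicin CD44lo (0.0268). A block within each treatment, chosen after seeing the data, also gave 0 members between the fractions. Of all 12925 genes it called 10 after epirubicin and 107 after hypoxia, where the main fit called 3 and 0. Signals near the offset, such as those of ERAP2, limit what can be measured.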
